A study of Arabidopsis thaliana with 12 samples.

Results

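Light-harvesting proteins, the nuclear-encoded subunits of photosystem I and photosystem II, plastocyanin, ferredoxin reductase, the small subunit of Rubisco and enzymes of the Calvin cycle are encoded by nuclear genes and imported into the chloroplast. A set of 54 such genes of Arabidopsis thaliana, chosen by locus identifier and named for the proteins they encode, was followed through a root RNA-seq study in which 33602 genes were tested. This set and the pathway lists used below were chosen with earlier results of these data known. The set comprised 9 genes of the major light-harvesting complex of photosystem II (LHCII), 5 of its minor antenna, 6 of the photosystem I antenna (LHCI), 12 of photosystem I, 7 of photosystem II, 4 of electron transfer, 4 of the Rubisco small subunit and 7 of the Calvin cycle.

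Roots of seedlings of the Col-0 cultivar were collected 6 days after germination from 1/2 MS plates in 4 groups of 3 samples, which the study's design text calls biological replicates. The groups were trm4b-1 on 0.01 uM paraquat, trm4b-1 on medium without paraquat, WT on 0.01 uM paraquat and WT on medium without paraquat. TRM4B encodes an RNA cytosine methyltransferase, and the mutant is represented by a single allele. Paraquat is a herbicide that accepts electrons from photosystem I and from mitochondrial chains and passes them to oxygen, so that superoxide forms. In roots it acts without the high photosynthetic electron flow of leaves.

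In leaves, light-harvesting proteins bind chlorophyll and pass excitation to the photosystems, which move electrons through plastocyanin, ferredoxin and ferredoxin reductase to NADP. The Calvin cycle then uses the NADPH and ATP to fix carbon dioxide on Rubisco. Root plastids of seedlings grown in light can turn partly green, and the genes of these proteins are transcribed there at levels far below those in leaves. GLK and GATA factors and HY5 activate many of them, and signals from the plastid to the nucleus repress them when the plastid is damaged.

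Ribosomal RNA was depleted from total RNA before sequencing. The data were the authors' 5 deposited tables of limma contrasts: paraquat against control medium in each genotype, trm4b-1 against WT on each medium, and the interaction of genotype and paraquat. A gene appears in a table where its adjusted p was under 0.1, with its log2 fold change and p-value, and no values per sample are given. Depth, expression levels and the spread among the 3 libraries of a group are therefore unknown, and whether 1 library carries a result was not tested. Errors given with ± are standard errors of the log2 fold change, recovered from the deposited log2 value and p-value. A gene is said to have risen or fallen where the adjusted p in the authors' deposited table was under 0.05. A gene that a table does not list may have differed by less than the table could show, and is described as not listed.

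The labels were first set against the RNA of the targeted gene. TRM4B had more RNA, and not less, in samples labelled trm4b-1 than in WT, by a log2 value of 3.90 ± 0.08 on paraquat and 2.89 ± 0.08 on control medium in the authors' deposited tables, which is 14.9-fold and 7.43-fold. The direction of each genotype comparison therefore refers to the libraries labelled trm4b-1, and what transcript was counted was not analysed here. Presence of root or leaf markers could not be checked either, because the tables hold only genes that differ between groups.

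In WT roots, most of the 54 genes had less RNA on paraquat than on control medium, and none had more among those listed. In the authors' deposited table, 41 of the 54 were listed, all as lower on paraquat, and 40 fell, which is 74.1% of the set. Among all 33602 genes tested, 9.01% fell and 7.99% rose at the same threshold. That total is larger than the 27443 nuclear protein-coding genes whose upstream bases were searched. Genes with too little root RNA to be called may be among those tested. They would lower these shares and those of the other comparisons, and their number is unknown. No gene of the set rose by limma at any adjusted p the table lists, which reaches down to an unadjusted p of 0.0216. LHCB6, a minor antenna protein of photosystem II, was the listed gene that stayed above the threshold, with -0.78 ± 0.26 and an adjusted p of 0.0528 in the authors' deposited table. At the listing limit 11.3% of all genes were lower.

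The falls in WT were large by the standard of that table. Their log2 values ran from -4.75 to -0.65 with a median of -1.3, against a median of -0.26 over all listed genes and -0.64 over all genes listed as lower in the authors' deposited table. A fall of at least 1 on the log2 scale was seen in 30 of the 40 genes (75.0%), against 31.2% of all called falls, and 2.81% of all genes tested met that limit and the threshold together. Falls of at least 2 were seen in 11 genes and of at least 3 in 5 genes. Among the 30 largest listed falls of the whole genome, 5 belonged to the set: LHCB1.4, LHCB1.1, LHCB1.2, RBCS3B and PRK. Errors were wide as well, with a median standard error of 0.261 over the listed genes of the set and 0.142 over all genes listed as lower. Of the 41 listed genes of the set, 7 had a standard error above 0.5, and the 5 among the 30 largest falls were all of this kind. A listing needed an absolute t of 2.56, so a gene with a wide error was listed only where its fall was large. That limit raises the sizes listed for the set by an unknown amount. Fewer cells with green plastids and less RNA per cell cannot be told apart in these bulk samples.

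**Figure D1:**
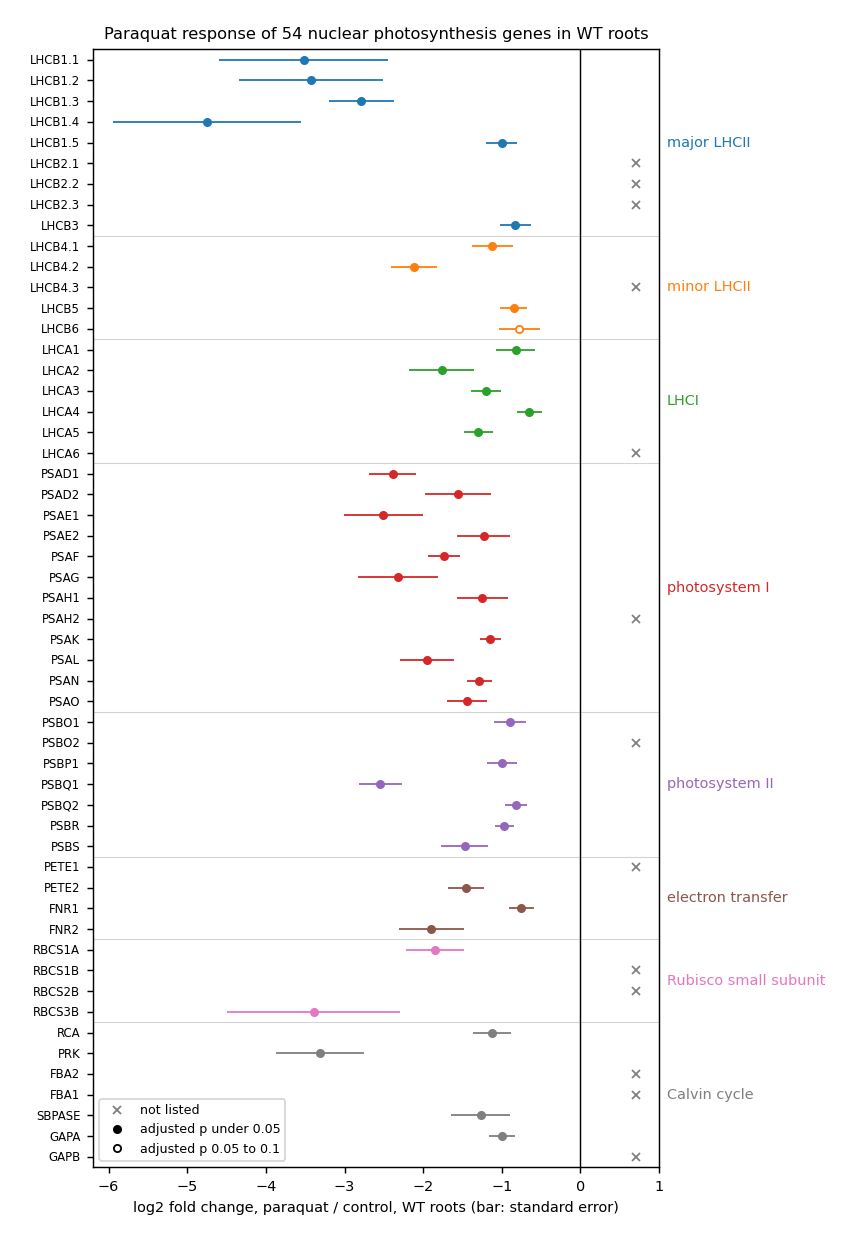
Log2 fold change of paraquat over control medium in WT roots (horizontal axis) for each of the 54 genes, grouped by role, with bars for the standard error. Filled points are the 40 genes that fell, running from -4.75 for LHCB1.4 to -0.65 for LHCA4, the open point is LHCB6 and crosses mark the 13 genes that the table does not list.

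The major LHCII proteins, the trimeric antenna of photosystem II and the most abundant proteins of the leaf thylakoid, gave the largest median fall of the 8 role groups. In WT roots on paraquat 6 of these 9 genes fell, with a median log2 value of -3.11 over those listed. LHCB1.4 (AT2G34430) fell by 4.75 ± 1.19 in the authors' deposited table, or 26.9-fold with a 95% interval of 4.65 to 156. LHCB1.1 (AT1G29920) fell by 3.52 ± 1.08 and LHCB1.2 (AT1G29910) by 3.43 ± 0.91, with adjusted p of 0.0339 and 0.0156 in the authors' deposited table. These 3 values have the widest errors of the LHCII group, so their order is not resolved. LHCB1.3 (AT1G29930) fell by 2.79 ± 0.42 with an adjusted p of 0.000225 in the authors' deposited table, the lowest of this family. LHCB1.5 (AT2G34420) fell by 1.00 ± 0.20 in the authors' deposited table, with an interval of 1.5-fold to 2.67-fold, which lies wholly below that of LHCB1.4. LHCB3 (AT5G54270), whose protein joins LHCB1 and LHCB2 in LHCII trimers, fell by 0.83 ± 0.20 in the authors' deposited table. The LHCB2.1, LHCB2.2 and LHCB2.3 genes, which encode the trimer partner that is phosphorylated in state transitions, were not listed in WT.

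Because the LHCB1 genes are close copies, reads may have been shared between them, and their separate values are uncertain. In the TAIR10 coordinates of the deposited tables, LHCB1.2, LHCB1.1 and LHCB1.3 each have 1 exon and lie side by side on chromosome 1, starting at 10472280, 10474784 and 10478005. LHCB1.5 and LHCB1.4 are neighbours on chromosome 2, starting at 14522524 and 14524756. The coding sequences of LHCB1.1, LHCB1.2 and LHCB1.3 in RefSeq TAIR10.1 are identical at 95.6% to 96.4% of aligned bases, and share unbroken runs of 74 to 119 bases. LHCB1.4 and LHCB1.5 are identical at 91.4%, with a shared run of 122 bases. The last 60 coding bases of the 5 genes, written 5′ to 3′ on the coding strand with bases that differ from LHCB1.3 in capitals, show how little separates the copies:
LHCB1.1: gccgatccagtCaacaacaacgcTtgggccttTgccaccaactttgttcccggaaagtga
LHCB1.2: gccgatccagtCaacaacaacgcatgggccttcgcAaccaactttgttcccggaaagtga
LHCB1.3: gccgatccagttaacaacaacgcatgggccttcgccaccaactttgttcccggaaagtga
LHCB1.4: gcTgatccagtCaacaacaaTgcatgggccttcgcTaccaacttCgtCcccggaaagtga
LHCB1.5: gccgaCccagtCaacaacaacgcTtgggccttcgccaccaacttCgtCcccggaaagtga
LHCB1.1 and LHCB1.2 differ from LHCB1.3 at 3 and 2 of these 60 bases, and LHCB1.4 and LHCB1.5 at 6 and 5. The sources used here do not say how reads that match several copies were counted.

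The minor antenna links LHCII to the photosystem II core, and 3 of its 5 genes fell. LHCB4.2 (AT3G08940), 1 of the genes for the CP29 protein, fell by 2.12 ± 0.29, with an adjusted p of 0.000102 in the authors' deposited table. LHCB4.1 (AT5G01530), which encodes the same protein, fell by 1.12 ± 0.26, and LHCB5 (AT4G10340), for CP26, fell by 0.85 ± 0.17 in the authors' deposited table. LHCB4.3 was not listed.

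In the photosystem I antenna 5 of 6 genes fell in WT, between -1.77 and -0.65. LHCA2 (AT3G61470) fell by 1.77 ± 0.41, LHCA5 (AT1G45474) by 1.3 ± 0.18 and LHCA3 (AT1G61520) by 1.2 ± 0.19 in the authors' deposited table. The smallest called fall of the whole set was that of LHCA4 (AT3G47470), 0.65 ± 0.16 with an adjusted p of 0.00842 in the authors' deposited table. LHCA6, a minor form that joins photosystem I to the NDH complex, was not listed.

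Photosystem I was the role group with the highest share of falls, 11 of 12 genes, with a median of -1.56. After PSBQ1, the lowest adjusted p-values of the set belonged here. PSAF (AT1G31330), whose product docks plastocyanin, fell by 1.73 ± 0.20 with an adjusted p of 2.84e-05, and PSAK (AT1G30380), a subunit beside the antenna, by 1.15 ± 0.14 with an adjusted p of 3.07e-05 in the authors' deposited table. PSAE1 (AT4G28750) and PSAD1 (AT4G02770), stromal subunits where ferredoxin docks, had log2 values of -2.51 ± 0.50 and -2.39 ± 0.30 in the authors' deposited table. PSAN (AT5G64040), on the lumen side, fell by 1.28 ± 0.16, and PSAG (AT1G55670), an antenna-binding subunit, by 2.32 ± 0.51. The second copies PSAD2 and PSAE2 had -1.56 ± 0.42 and -1.23 ± 0.33 in the authors' deposited table. PSAH2 was not listed, while its copy PSAH1, identical at 87.0% of aligned coding bases, fell by 1.25 ± 0.33. PSAL and PSAO, which with PSAH form the docking side for LHCII, had -1.95 ± 0.35 and -1.44 ± 0.25 in the authors' deposited table.

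Among photosystem II genes 6 of 7 fell. PSBQ1 (AT4G21280), a lumenal protein of the oxygen-evolving complex, had the lowest adjusted p of the set in WT, 1.42e-05, with a log2 value of -2.55 ± 0.28 in the authors' deposited table. Its copy PSBQ2 (AT4G05180), identical at 77.7% of aligned coding bases, fell by 0.82 ± 0.14, and the 95% intervals of these 2 genes do not overlap. PSBS (AT1G44575), which triggers the quenching of excess excitation, fell by 1.47 ± 0.30 in the authors' deposited table. PSBP1 (AT1G06680) and PSBO1 (AT5G66570), both of the oxygen-evolving complex, had -1.0 ± 0.19 and -0.89 ± 0.21, and PSBR (AT1G79040), which stabilises it, -0.97 ± 0.12 in the authors' deposited table. PSBO2 was not listed.

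Of the electron transfer genes, FNR2 (AT1G20020) and FNR1 (AT5G66190), the leaf ferredoxin reductases, had -1.90 ± 0.41 and -0.75 ± 0.16 in the authors' deposited table. PETE2 (AT1G20340), the main plastocyanin gene, fell by 1.45 ± 0.23, and its copy PETE1 was not listed.

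The Rubisco small subunit and the Calvin cycle had the lowest shares of called genes, 2 of 4 and 4 of 7. RBCS3B (AT5G38410) fell by 3.39 ± 1.1 with an adjusted p of 0.0455, close to the threshold, and RBCS1A (AT1G67090) by 1.85 ± 0.37 in the authors' deposited table. RBCS1B and RBCS2B were not listed, and their coding sequences match that of RBCS3B at 96.7% and 96.9% of bases, with a shared run of 233 bases between RBCS1B and RBCS3B, so that the split between these copies is uncertain. PRK (AT1G32060), phosphoribulokinase, which regenerates the acceptor of carbon dioxide, fell by 3.31 ± 0.56, or 9.95-fold, with an adjusted p of 0.000648 in the authors' deposited table. RCA (AT2G39730), Rubisco activase, fell by 1.13 ± 0.24, SBPASE (AT3G55800), sedoheptulose bisphosphatase, by 1.27 ± 0.38 and GAPA (AT3G26650), a subunit of the chloroplast glyceraldehyde phosphate dehydrogenase, by 1.00 ± 0.16 in the authors' deposited table. GAPB, FBA1 and FBA2 were not listed.

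**Figure D2:**
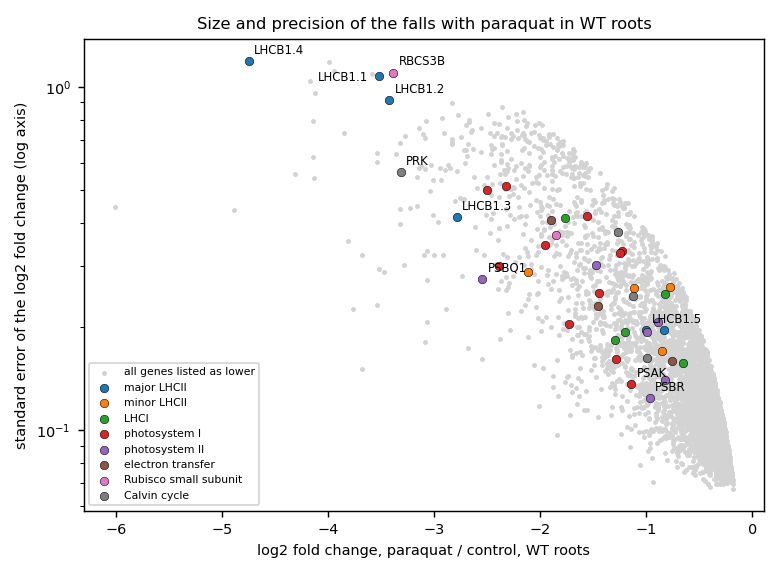
Standard error (vertical, log axis) against log2 fold change of paraquat over control medium in WT roots (horizontal) for all genes listed as lower (grey) and for the set (coloured by role). LHCB1.4, LHCB1.1, LHCB1.2 and RBCS3B combine falls over 3 with standard errors near or above 0.9, whereas PSBR and PSAK have small falls with small errors, and the sharp right-hand edge is the listing limit of the table.

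The 250 bases upstream of the RefSeq start of each gene were searched on both strands for the 6-base G-box CACGTG, bound by HY5 and PIF proteins, the I-box GATAAG, which GATA factors can bind, and CCAATC, a sequence described for GLK targets that contains the CCAAT box. The G-box was present upstream of 10 of the 54 genes (18.5%), against 6.49% of 27443 protein-coding genes. The I-box was present in 13 (24.1%), against 12.3%, and CCAATC in 13 (24.1%), against 10.2%. Among the 40 genes that fell in WT, 6 had a G-box, 9 an I-box and 10 CCAATC, and among the other 14 the counts were 4, 4 and 3. These matches describe sequence and are not binding sites. Distances count from the RefSeq start, and the deposited coordinates start some genes further downstream. PRK starts at 11532199 in RefSeq and at 11532533 in the deposited coordinates, and LHCB1.3 at 10477885 and 10478005. From the deposited starts the regions searched would differ. The upstream regions of 4 genes are shown, written 5′ to 3′ on the gene's strand in TAIR10.1 with the match in capitals, because PRK had the called interaction, LHCB1.3 the lowest adjusted p of the LHCB1 genes, and PSAF and PSAK the lowest adjusted p of photosystem I in WT. PSAF and PSAK are also among the 6 genes that fell in both genotypes, of which PSBQ1 and PSBQ2 each hold 2 G-boxes and LHCA5 and PSAN none of the motifs. PRK (chr1:11531949-11532198, plus strand) has a G-box 173 bases before the start, LHCB1.3 (chr1:10477635-10477884, plus strand) CCAATC 91 bases before it, PSAF (chr1:11216142-11216391, minus strand) an I-box 66 bases before it and PSAK (chr1:10721933-10722182, plus strand) an I-box 67 bases before it on the opposite strand, where it reads as CTTATC:
PRK: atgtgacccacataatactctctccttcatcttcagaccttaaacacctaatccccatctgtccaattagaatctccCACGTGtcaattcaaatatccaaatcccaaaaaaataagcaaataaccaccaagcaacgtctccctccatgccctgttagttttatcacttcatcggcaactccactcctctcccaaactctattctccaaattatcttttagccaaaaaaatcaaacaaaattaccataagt
LHCB1.3: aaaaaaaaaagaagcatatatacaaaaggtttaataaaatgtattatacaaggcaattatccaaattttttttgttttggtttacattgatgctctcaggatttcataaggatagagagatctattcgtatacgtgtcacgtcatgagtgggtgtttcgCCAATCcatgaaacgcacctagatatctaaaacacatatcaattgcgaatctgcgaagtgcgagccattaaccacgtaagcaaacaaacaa
PSAF: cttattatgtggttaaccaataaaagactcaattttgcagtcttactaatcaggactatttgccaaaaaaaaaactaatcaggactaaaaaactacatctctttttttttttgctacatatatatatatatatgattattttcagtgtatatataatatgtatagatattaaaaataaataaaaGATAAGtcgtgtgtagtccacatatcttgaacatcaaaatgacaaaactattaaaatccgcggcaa
PSAK: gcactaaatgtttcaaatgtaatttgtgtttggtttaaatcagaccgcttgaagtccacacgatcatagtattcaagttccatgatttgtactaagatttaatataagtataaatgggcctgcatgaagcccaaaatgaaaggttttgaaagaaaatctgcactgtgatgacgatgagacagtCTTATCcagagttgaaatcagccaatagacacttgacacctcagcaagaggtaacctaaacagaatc
In TAIR10.1 these 4 regions overlap no other protein-coding gene, and other kinds of gene were not checked.

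In roots labelled trm4b-1, few genes of the set passed the threshold on paraquat. The authors' deposited table listed 9 of the 54, of which 6 fell (11.1%) and 1 rose (1.85%), where 4.33% of all genes tested fell and 4.72% rose. At the listing limit 5.97% of all genes were lower. The genes that fell were PSAF, PSAK, PSAN, LHCA5, PSBQ1 and PSBQ2, and each of them had fallen in WT too. Their falls were between 0.59 and 0.96 on the log2 scale in the authors' deposited table. FNR1 and FNR2 were listed with -0.46 ± 0.16 and -1.24 ± 0.40 but stayed above the threshold, with adjusted p of 0.0969 and 0.0732 in the authors' deposited table. A listing in this table needed an absolute t of 2.84, against 2.56 in the WT table, and 8 and 41 genes of the set were listed as lower. The threshold was stricter here as well. By limma an unadjusted p of 0.00397 gave an adjusted p of 0.0454 for LHCA5 in trm4b-1. In WT an unadjusted p of 0.00747 gave 0.0455 for RBCS3B. The count of 6 against 40 therefore does not by itself show that the genotypes differ.

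PSAF changed by -0.75 ± 0.21 in trm4b-1, against -1.73 ± 0.20 in WT, PSAK by -0.82 ± 0.13 in trm4b-1, against -1.15 ± 0.14 in WT, and PSAN by -0.68 ± 0.15 in trm4b-1, against -1.28 ± 0.16 in WT, in the authors' deposited tables. LHCA5 changed by -0.59 ± 0.17 in trm4b-1, against -1.3 ± 0.18 in WT, in the authors' deposited tables. None of these 4 genes was listed in the interaction table. Their rebuilt interactions were 0.98 ± 0.29 for PSAF, 0.71 ± 0.25 for LHCA5, 0.60 ± 0.22 for PSAN and 0.32 ± 0.19 for PSAK, so their smaller falls in trm4b-1 did not pass that test. PSBQ1 changed by -0.96 ± 0.24 in trm4b-1, against -2.55 ± 0.28 in WT, in the authors' deposited tables. PSBQ2 was the exception in direction, with -0.96 ± 0.14 in trm4b-1, against -0.82 ± 0.14 in WT, and a rebuilt interaction of -0.14 ± 0.20.

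The gene that rose was LHCB2.1 (AT2G05100), by 1.87 ± 0.53 on the log2 scale with an adjusted p of 0.0387 in the authors' deposited table for trm4b-1. It lies on chromosome 2 from 1823240 to 1824425 on the minus strand. It was listed in no other table, so its change in WT is unknown. Its copy LHCB2.2, identical at 96.6% of aligned coding bases with a shared run of 152, was listed nowhere, and reads of the pair may have been split between them.

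**Figure D3:**
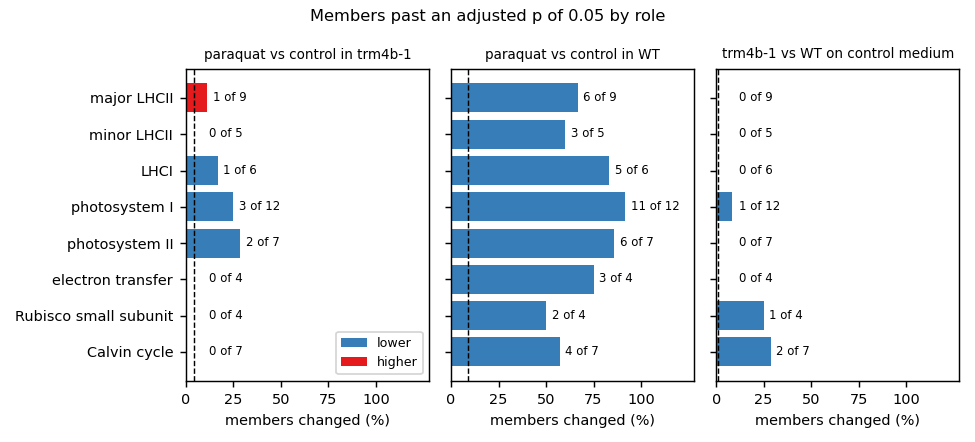
Share of the genes in each role group (percent, horizontal) that fell or rose at an adjusted p under 0.05, for paraquat in trm4b-1, paraquat in WT and trm4b-1 against WT on control medium. Labels give the counts and the dashed line is the share of all tested genes that fell in the same comparison; photosystem I reaches 3 of 12 in trm4b-1 and 11 of 12 in WT.

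On control medium, 4 genes of the set were lower in trm4b-1 than in WT and none was higher. The authors' deposited table listed 8 of the 54, all as lower, and the 4 called make up 7.41% of the set, where 1.19% of all genes tested were lower and 0.839% higher. At the listing limit 2.08% of all genes were lower. No gene of the set was higher by limma down to an unadjusted p of 0.00364, where the table ends. PRK was lower by a log2 value of -2.36 ± 0.51, or 5.13-fold, RBCS1A by -1.87 ± 0.36, PSAF by -0.78 ± 0.17 and GAPA by -0.60 ± 0.15 in the authors' deposited table, with adjusted p between 0.0156 and 0.0478. LHCB1.3 was listed with -1.14 ± 0.30, LHCB4.2 with -0.78 ± 0.21, PSBO1 with -0.76 ± 0.20 and PSBQ1 with -0.65 ± 0.18 in the authors' deposited table, none of them past the threshold. This comparison and the one of paraquat in WT use the same WT control libraries, and the interaction uses them too, so a deviation in those libraries would enter all of them.

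On paraquat, none of the 54 genes was listed between trm4b-1 and WT in the authors' deposited table, in which 0.0714% of all genes were lower and 0.0714% higher at an adjusted p under 0.05. That table ends at an unadjusted p of 0.000202, an absolute t of 4.85, so smaller differences would not be listed. For 5 genes the difference could be rebuilt from the other contrasts, and all 5 values were above 0. PRK was higher in trm4b-1 by 2.01 ± 0.63, PSBQ1 by 0.94 ± 0.32, LHCB4.2 by 0.87 ± 0.32, GAPA by 0.42 ± 0.17 and PSAF by 0.20 ± 0.23, of which 4 had an unadjusted p under 0.05. These genes could be rebuilt only because they were listed in other tables, so they do not stand for the set. PRK, LHCB4.2 and GAPA were known only through a listed positive interaction, and PSBQ1 was listed with one too. The difference on paraquat equals the interaction plus the difference on control medium, so that selection favours values above 0. The signs and unadjusted p of these 4 genes therefore do not measure a genotype difference on paraquat. PSAF was not listed in the interaction.

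The interaction asks whether the response to paraquat differed between the genotypes, as the change in trm4b-1 minus that in WT. PRK was the gene of the set for which it passed the threshold (1 of 54, 1.85%), where the interaction was positive in 0.152% and negative in 0.167% of all genes tested. Its interaction was 4.37 ± 0.81 with an adjusted p of 0.0323 in the authors' deposited table. PRK changed with paraquat by 1.05 ± 0.58 in trm4b-1, a value rebuilt from the other contrasts, against -3.31 ± 0.56 in WT. Written the other way, the interaction is the rebuilt difference of trm4b-1 from WT of 2.01 on paraquat minus that of -2.36 on control medium.

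A further 6 genes were listed with a positive interaction that stayed above the threshold, with adjusted p between 0.0742 and 0.0867 in the authors' deposited table. They were PSAD1 at 1.73 ± 0.39, LHCB4.2 at 1.65 ± 0.39, PSBQ1 at 1.59 ± 0.36, RCA at 1.51 ± 0.34, GAPA at 1.02 ± 0.23 and PSBR at 0.76 ± 0.17. At the listing limit 0.551% of all genes had a positive interaction, and none of the 54 was listed with a negative one down to an unadjusted p of 0.000936. For 5 of these 6 genes the change with paraquat in trm4b-1 was rebuilt, with -0.65 ± 0.25 for PSAD1, -0.46 ± 0.26 for LHCB4.2, -0.21 ± 0.12 for PSBR, 0.39 ± 0.24 for RCA and 0.02 ± 0.16 for GAPA. In WT the changes of the same genes, in that order, were -2.39, -2.12, -0.97, -1.13 and -1.0 in the authors' deposited table.

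Values of the paraquat response in both genotypes, deposited or rebuilt, were at hand for 14 of the 54 genes. In 13 of them the absolute change was smaller in trm4b-1 than in WT, PSBQ2 being the exception. All 14 had to be listed in at least 2 tables to be known, and all were listed as lower in WT. PRK, PSAD1, LHCB4.2, PSBR, RCA and GAPA were known in trm4b-1 only through a listed positive interaction. With a fall in WT, that fixes a less negative change in trm4b-1 in advance. The count of 13 therefore does not measure a genotype difference over the set, and it was not made over all genes. For most of the 40 genes that fell in WT the response in trm4b-1 is unknown.

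**Figure D4:**
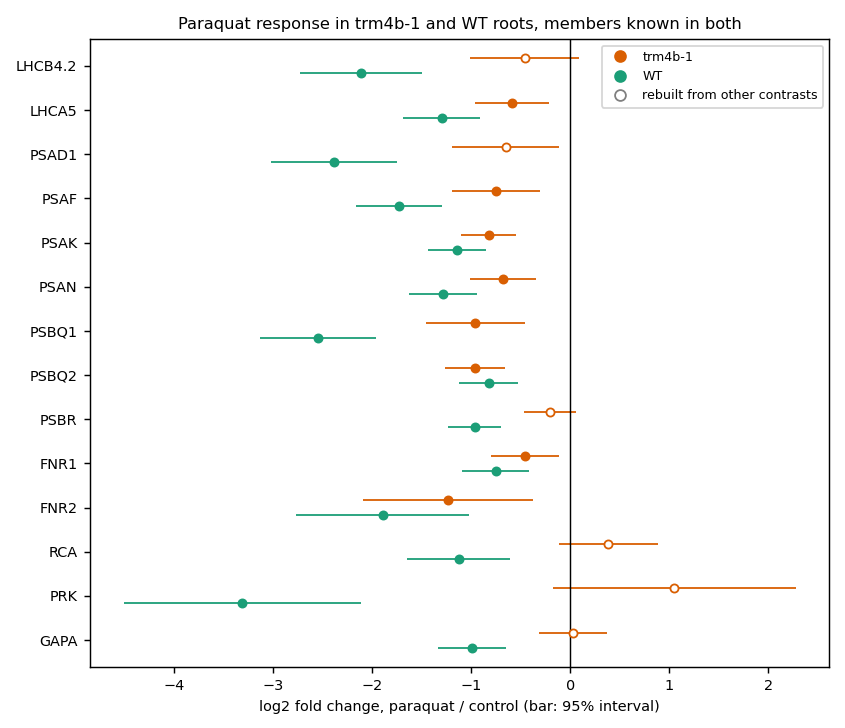
Log2 fold change of paraquat over control medium (horizontal axis, bars for the 95% interval) in trm4b-1 (orange, upper) and WT (green, lower) for the 14 genes with values in both genotypes. Open points are rebuilt from other contrasts; PRK lies at 1.05 in trm4b-1 and -3.31 in WT, and the 2 intervals of PSBQ2 overlap over most of their length.

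Chlorophyll synthesis supplies the pigment that the light-harvesting proteins bind, and more of its genes fell than rose in WT. Of 26 genes of chlorophyll and tetrapyrrole synthesis, 6 fell and 1 rose with paraquat in trm4b-1, and 12 fell and 2 rose in WT, in the authors' deposited tables. Among all genes tested, 4.33% fell and 4.72% rose in trm4b-1, and 9.01% fell and 7.99% rose in WT, and the counts of this and the next lists are to be read against these shares. PORB, the light-dependent protochlorophyllide reductase, changed by -1.69 ± 0.32 in trm4b-1 and -2.24 ± 0.31 in WT. CHLM, magnesium protoporphyrin methyltransferase, changed by -0.92 ± 0.15 in trm4b-1 and -1.26 ± 0.14 in WT, and CRD1, which forms the fifth ring, by -0.58 ± 0.16 in trm4b-1 and -1.31 ± 0.16 in WT, in the authors' deposited tables. CH1, which makes chlorophyll b, moved the other way and rose by 0.76 ± 0.14 in trm4b-1 and 0.69 ± 0.14 in WT. FC1, the ferrochelatase of the haem branch, rose by 0.27 ± 0.08 in WT. None of the 26 passed the threshold between trm4b-1 and WT on either medium or in the interaction, by limma.

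Among 23 regulators of photosynthesis genes, 3 fell and 3 rose with paraquat in trm4b-1, and 10 fell and 2 rose in WT, in the authors' deposited tables. The 2 rises in WT are a share near the 7.99% of all genes. GNC, a GATA factor that promotes greening, changed by -2.05 ± 0.50 in trm4b-1 and -2.76 ± 0.47 in WT. GLK2, an activator of antenna genes, fell by 0.83 ± 0.17 and HY5, a light-signalling factor, fell by 0.56 ± 0.14 in WT in the authors' deposited table. The HY5 homologue HYH rose by 0.54 ± 0.11 in trm4b-1 and 0.60 ± 0.11 in WT. PIF4 is known as a repressor of greening, and it fell by 3.08 ± 0.80 in WT, so the regulators that fell include both activators and a repressor. PIL6, another PIF protein gene of the list, fell by 2.02 ± 0.66 in WT, with an adjusted p of 0.0483 in the authors' deposited table. SIGF, a sigma factor of the plastid RNA polymerase, fell by 1.57 ± 0.25 in WT, while SIGE, a stress-induced sigma factor, rose by 0.81 ± 0.10 in trm4b-1 and 0.58 ± 0.10 in WT in the authors' deposited tables.

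A list of 27 other nuclear photosynthesis genes gave 2 falls and 2 rises with paraquat in trm4b-1, and 15 falls and 2 rises in WT, in the authors' deposited tables. The counts in trm4b-1 and the rises in WT are few and near the shares of all genes (4.33% fell and 4.72% rose in trm4b-1, 7.99% rose in WT). GAPA-2, the second A subunit of the dehydrogenase, changed by -2.23 ± 0.59 in WT, CP12-1, which binds PRK and that dehydrogenase, by -1.90 ± 0.26, PSBW of photosystem II by -1.88 ± 0.27 and PETC, the Rieske protein of cytochrome b6f, by -1.18 ± 0.20. On control medium 3 of the 27 were lower in trm4b-1 than in WT and none was higher, where 1.19% of all genes were lower and 0.839% higher. They were CP12-1 by -1.11 ± 0.21, PSBW by -0.97 ± 0.22 and the ferredoxin gene FED A by -0.88 ± 0.16 in the authors' deposited table. None of the 27 passed the threshold in the interaction. ABA1, the zeaxanthin epoxidase, rose by 0.67 ± 0.10 in trm4b-1 and 0.40 ± 0.10 in WT. Of 12 photorespiration genes, 3 fell and 1 rose in trm4b-1, and 5 fell in WT. GOX2, a glycolate oxidase, changed by -0.79 ± 0.17 in trm4b-1 and -1.21 ± 0.17 in WT in the authors' deposited tables.

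Roots also hold their own ferredoxin reductases, which draw on NADPH to reduce ferredoxin for nitrite assimilation. In trm4b-1 RFNR2 fell by 0.57 ± 0.15, and in WT RFNR1 rose by 0.50 ± 0.10 where the leaf forms FNR1 and FNR2 fell, in the authors' deposited tables. The large subunit of Rubisco is encoded in the plastid, and rbcL fell by 0.85 ± 0.12 in WT in the authors' deposited table. It does not stand for the plastid genome, of which 37 genes were listed in that table with a median of 1.15. Of these, 5 fell, rbcL among them, and 13 rose. They were counted because they were listed, so their shares cannot be set beside those of all genes.

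Few tissue markers were called, and in WT their share was near that of all genes, of which 9.05% passed with paraquat in trm4b-1 and 17.0% in WT, counting both directions. Of 21 shoot and leaf markers without a photosynthetic role, none passed with paraquat in trm4b-1, and 1 fell and 3 rose in WT. The stomatal lineage gene TMM fell by 2.18 ± 0.65, and the epidermal genes PDF1 and ATML1 and the leaf polarity gene KAN rose by 1.39 ± 0.29, 1.12 ± 0.26 and 0.72 ± 0.17 in the authors' deposited table. ATML1 was also higher in trm4b-1 on control medium, by 1.23 ± 0.25. Of 12 root markers, 2 fell and 1 rose in WT: the root hair gene SHV2 by -1.17 ± 0.18, the endodermal gene CASP1 by -0.97 ± 0.20 and the meristem gene PLT2 by 1.04 ± 0.28 in the authors' deposited table. SHV2 was lower in trm4b-1 than in WT on control medium as well, by -0.87 ± 0.17. The part of these genes in the falls of the photosynthesis genes was not tested.

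Over all 5 tables, 42 of the 54 genes were listed at least once and 17 in at least 2, while 24 were listed for paraquat in WT alone. The 12 genes listed nowhere were LHCB2.2, LHCB2.3, LHCB4.3, LHCA6, PSAH2, PSBO2, PETE1, RBCS1B, RBCS2B, FBA1, FBA2 and GAPB.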

How the data were processed

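Per the labels' protocols, libraries were made from root total RNA after removal of ribosomal RNA. Trimmomatic, TopHat, limma and TAIR10 are named in the submitters' processing notes. Not given in the sources used here are the counting, the use of strand, the normalization and any low-value filter. For each gene with an adjusted p under 0.1, the deposited tables hold a log fold change (read as log2 after limma's convention, the header naming no base), its p-value with the adjusted p-value and Storey q-value, and exon coordinates, as the authors computed them, and no values per sample. The depth per sample is therefore unknown.

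From each adjusted p, rank and p, 33602 tests were recovered. The deposited interaction equalled the paraquat difference in 96 genes and the genotype difference in 11, which fixes the signs. The total degrees of freedom were taken as 15.3 (8 residual). At that value the variance of the interaction matched the sum of both paraquat variances, in the median over the 96 genes. Standard errors are the log2 value over the t implied by its p, and 95% intervals use the same t distribution. Values absent from a table were rebuilt as sums or differences of listed contrasts. Because the interaction is a difference of independent contrasts, its variance is the sum of theirs, so a rebuilt interaction has the variances added, and a contrast rebuilt from the interaction has the known variance subtracted from that of the interaction.

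Genes were called at an adjusted p under 0.05. The 54 genes, the pathway lists and the tests were chosen with earlier results of these data known. Named in full are genes listed in more than 1 table or for a genotype effect, and the leading falls of each role group; SHV2 and the other list genes named outside that rule were chosen after their values were seen. Upstream and coding sequences come from the RefSeq TAIR10.1 genome, in which 98.2% of 32046 inner exons of the deposited coordinates lie exactly at annotated exons. That check leaves out first and last exons, so it does not cover gene starts. Python 3.11.15, pandas 2.3.3, scipy 1.17.1, Biopython 1.88 and matplotlib 3.10.9 were used.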

Additional observations from a re-analysis of the deposited data

Results flagged for a closer look

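PRK was singled out because its response to paraquat differed between the genotypes in a test of the difference itself. Its interaction was 4.37 ± 0.81 on the log2 scale with an adjusted p of 0.0323 by limma in the authors' deposited table. The response was 1.05 ± 0.58 in trm4b-1, rebuilt from the other contrasts, and -3.31 ± 0.56 in WT. PRK was lower in trm4b-1 than in WT by -2.36 ± 0.51 on control medium and higher by a rebuilt 2.01 ± 0.63 on paraquat. Values of single libraries were not analysed here, so whether 1 library sets this result was not tested.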

How the results depend on the processing

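No paired analysis was possible because the deposited tables hold no values per sample, and leaving out each replicate was not run for the same reason. For the falls of the 54 genes with paraquat in WT, a Holm adjustment left 6 of the 40. In trm4b-1 the 6 falls became 3 at an adjusted p under 0.01, 0 with a fall of at least 1 on the log2 scale and 0 with Holm, and the 1 rise became 0 at an adjusted p under 0.01, 0 with Holm and 0 without the families of close copies, to which LHCB2.1 belongs. Between trm4b-1 and WT on control medium the 4 lower genes became 0 at an adjusted p under 0.01, 8 under 0.1, 2 with a difference of at least 1 and 0 with Holm, and the median log2 value became -1.33 over called genes alone. For the interaction the 1 positive gene became 0 at an adjusted p under 0.01, 7 under 0.1, 0 with Holm and 6 at a Storey q under 0.05, and the median became 4.37 over called genes and 0.872 with rebuilt values. The other 54 counts and medians recomputed this way stayed within 1.5 times the count given or close to the median given, and no value reversed. Many of these were counts of 0 in directions where no gene of the set was listed, which no setting could change. The medians with rebuilt values for paraquat in WT and for control medium had no rebuilt value to add. Such items say nothing about robustness. Stricter limits leave fewer genes by construction. With 8 degrees of freedom the standard errors would be 0.529 to 0.993 times those given. Without depth, genes too low to be measured cannot be told from genes that did not differ.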
